A study of Homo sapiens with 8 samples.

Results

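The kallikrein gene cluster on human chromosome 19 was examined for binding of GATA2 in VCaP, an established castrate-resistant prostate cancer cell line. The peaks were chosen by position: a summit had to lie within 50 kb of the RefSeq GRCh38 span of KLK1, KLK15, KLK3, KLK2, KLK4, KLK5, KLK6, KLK7, KLK10 or KLK11. This window ran from 50769146 to 51077991 (308.8 kb, hg38). It held 21 of the 71653 peaks in 4 peak lists. Merged where they overlapped by at least 1 bp, these gave 9 regions of 36122 in the genome. The study used chromatin immunoprecipitation and sequencing (ChIP-seq) of GATA2. All cells were steroid-depleted for 72 h in all. Those of the JQ1 group received 1 µM JQ1, a blocker of the acetyl-lysine pockets of BET bromodomain proteins, for the last 24 h. The samples they were set against are titled as not treated, while the growth protocol names a DMSO control, and they are called untreated here. Each group had 2 replicates, all of the same line, so that the values describe VCaP only. The labels do not say whether replicates were separate cultures, and p-values therefore measure only the spread between these lists.

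Kallikreins are secreted serine proteases whose genes stand side by side in a single cluster. KLK3 codes for prostate-specific antigen, which liquefies semen by cutting semenogelins, and KLK2 for its closest relative. Both are classical targets of the androgen receptor in luminal prostate cells. The receptor acts at KLK3 through an element in the promoter and through an enhancer a few kilobases upstream, and GATA2 is a zinc-finger factor known to bind such enhancers beside it. The RefSeq table also places a lncRNA with the synonym KLK3e (LOC105372441, 50830530 to 50851143) upstream of KLK3, and a transcribed pseudogene, KLKP1, downstream of KLK2. Expression was not measured.

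RefSeq promoter sequences (GRCh38.p14, 250 bases before to 50 after a start) were found for 9 of the 10 genes. They are shown for 3 of them, because a GATA2 peak reached the KLK2 promoter, the KLK3 promoter is its paralogue without a peak, and the KLK7 promoter held the only GATA match. In the KLK2 line capitals mark the 95 printed bases that lay under the 166 bp peak of untreated replicate 2. The rest of that peak lies before the printed bases. In the KLK3 line they mark AGAACA, the androgen receptor half-site letters. In the KLK7 line they mark AGATAA, the GATA letters.
KLK2, chr19:50873189-50873488, plus strand: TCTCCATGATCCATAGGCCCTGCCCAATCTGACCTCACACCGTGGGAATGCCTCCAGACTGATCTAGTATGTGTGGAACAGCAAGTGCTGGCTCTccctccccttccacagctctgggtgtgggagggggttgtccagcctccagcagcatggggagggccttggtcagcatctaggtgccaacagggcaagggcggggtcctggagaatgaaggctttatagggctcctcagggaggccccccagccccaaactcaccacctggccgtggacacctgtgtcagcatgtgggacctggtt
KLK3, chr19:50854665-50854964, plus strand: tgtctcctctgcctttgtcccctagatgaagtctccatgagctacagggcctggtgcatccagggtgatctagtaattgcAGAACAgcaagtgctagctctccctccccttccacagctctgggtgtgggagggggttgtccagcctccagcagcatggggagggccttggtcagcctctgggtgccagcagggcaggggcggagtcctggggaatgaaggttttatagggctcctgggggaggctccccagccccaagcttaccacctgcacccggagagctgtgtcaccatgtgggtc
KLK7, chr19:50983868-50984167, minus strand: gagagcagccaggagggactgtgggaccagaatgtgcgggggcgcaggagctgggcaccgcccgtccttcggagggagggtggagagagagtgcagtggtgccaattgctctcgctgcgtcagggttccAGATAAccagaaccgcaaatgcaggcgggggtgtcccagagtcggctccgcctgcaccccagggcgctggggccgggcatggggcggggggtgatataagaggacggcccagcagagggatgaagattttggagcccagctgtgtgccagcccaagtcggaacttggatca
The KLK2 and KLK3 promoters were identical at 245 of 288 aligned bases (85.1%). The half-site in KLK3 began at base -170 counted from the start, where the known promoter element lies. On both strands, AGATAA or TGATAA was in none of the KLK2 and KLK3 letters, and AGAACA was not in those of KLK2. At the matching place, before the same GCAAGTGCT, KLK2 reads GGAACA, which differs from the searched letters in the first base only. A search for exact letters therefore does not tell whether the KLK2 promoter has such an element. Of 35116 RefSeq promoters of this length, 16.3% held AGATAA or TGATAA and 14.8% held AGAACA. Among the 15 promoters of the 9 genes, 3 held a GATA match, all of them overlapping windows of KLK7 around the same AGATAA, and 1 held AGAACA. The forkhead letters TGTTTAC or TGTTTGC were in 7.17% of all promoters and in 0 of the 15. A match in these letters is a description and not evidence of a bound site. The genomic sequence under the rest of this KLK2 peak and under the other peaks was not used here.

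GATA2 occupied 3 sites of the cluster in all 4 lists, and all 3 stood around KLK3 and KLK2. The first, called the KLK15-KLK3 site here, had its summit at 50842272, which is 12.6 kb upstream of the KLK3 start and 8.70 kb upstream of the nearest KLK15 start, since KLK15 is transcribed the other way. The second, the KLK3 upstream site, had its summit at 50850886, 4.03 kb before the KLK3 start. The third, the KLK2 upstream site, had its summit at 50869675, 3.76 kb before the KLK2 start and 14.8 kb past that of KLK3. The neighbouring paralogues thus each had a common site at a similar distance upstream. Of all 36122 regions, 8.96% were present in all 4 lists, against 3 of the 9 regions here. The first and the second of the 3 lay inside the span of the KLK3e lncRNA, 11.7 kb and 20.4 kb from its lower coordinate. The KLK3 upstream site was only 257 bp from the upper coordinate of that span. The KLK2 upstream site lay in no annotated gene.

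**Figure D1:**
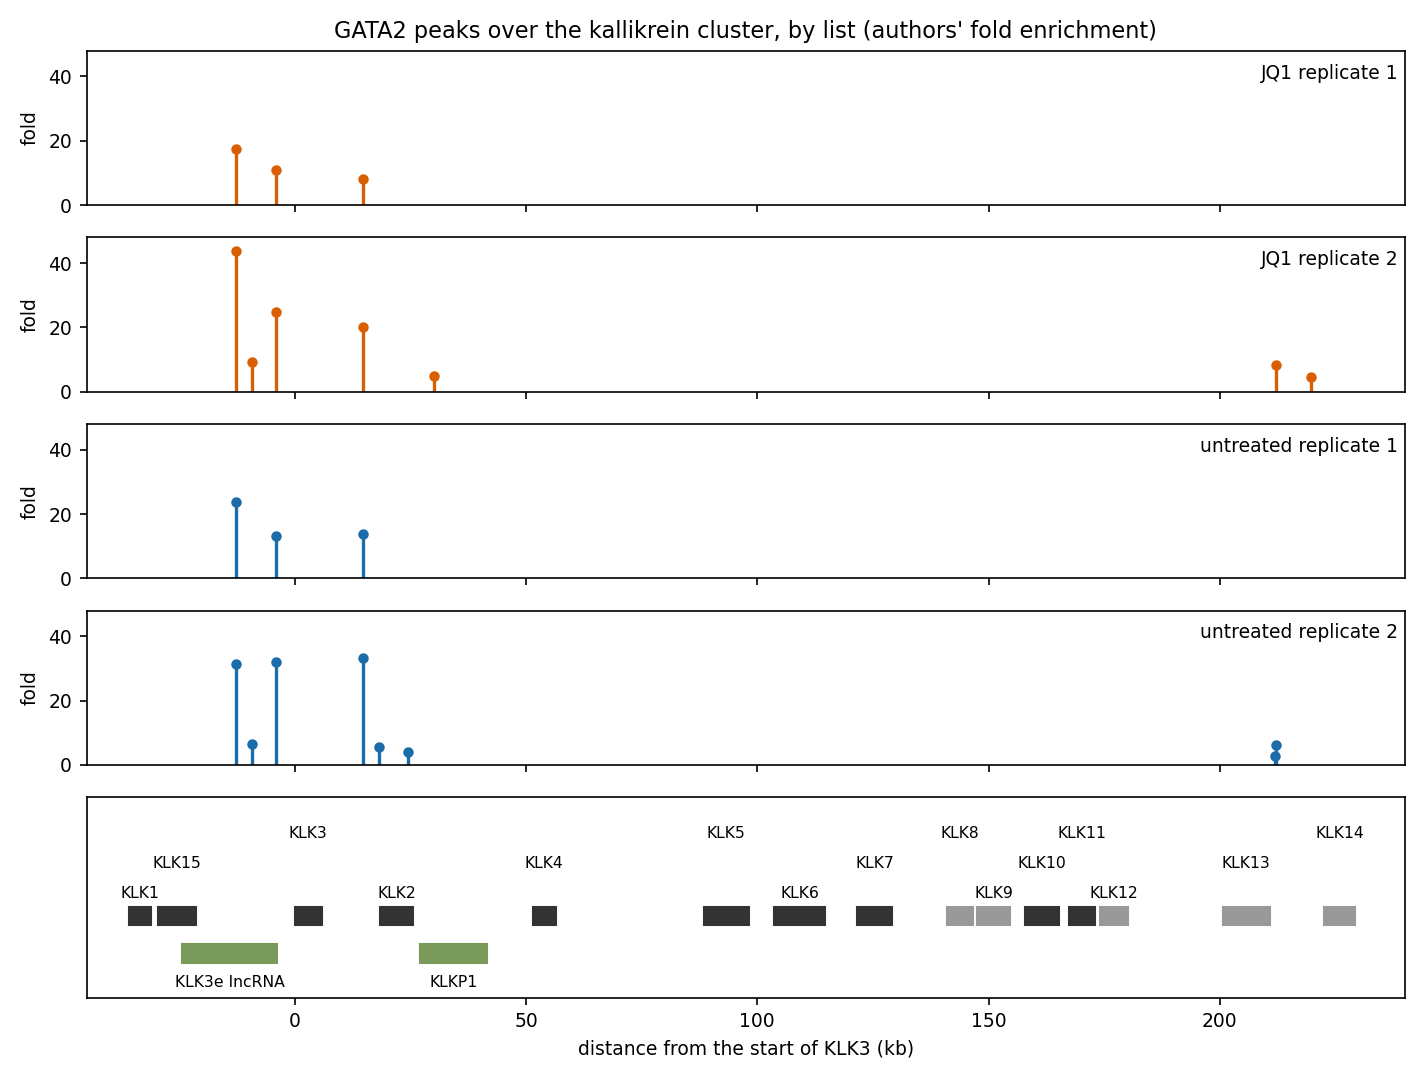
GATA2 peaks over the kallikrein cluster. Each stem is a peak, drawn at its summit's distance from the KLK3 start (kb) and with the authors' fold enrichment as height, in JQ1 lists (orange) above untreated lists (blue). Black boxes are the 10 genes that set the window, grey boxes the other kallikrein genes and green boxes the KLK3e lncRNA and KLKP1. Stems stand at the same 3 places in all 4 lists, and 181.6 kb from KLKP1 to beyond KLK13 hold none.

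The position of each common site was the same in every list to within a few bases. Summits of the KLK3 upstream site lay within 6 bp of each other across the 4 lists, those of the KLK2 upstream site within 15 bp and those of the KLK15-KLK3 site within 18 bp. The peak intervals at the KLK3 upstream site were 373 and 424 bp wide with JQ1, against 419 and 459 bp untreated. At the KLK2 upstream site they were 296 and 401 bp wide with JQ1, against 384 and 458 bp untreated. At the KLK15-KLK3 site the widths were 358 and 476 bp with JQ1, against 447 and 428 bp untreated. Within each replicate the JQ1 interval was the narrower at the first 2 of these sites, and the KLK15-KLK3 site was so in replicate 1 alone. The widths of the groups overlapped at each site, and widths were not compared over the other regions of the genome. Within each replicate number the JQ1 list also had fewer fragments over the regions of all 4 lists. The medians were 23 and 69 with JQ1, against 29 and 106 untreated. The groups overlapped here too, and the counts are not scaled for sequencing depth. The part of the fragment numbers in the widths was not tested.

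The 3 sites were among the strong GATA2 peaks of each list. By the authors' q-value the KLK15-KLK3 site stood in the top 2.13% and 0.414% of JQ1 replicates 1 and 2, against 0.362% and 0.442% of the untreated lists. The KLK3 upstream site stood in the top 2.41% and 0.447% of the JQ1 lists, against 0.913% and 0.194% of the untreated lists. The KLK2 upstream site stood in the top 6.80% and 0.926% of the JQ1 lists, against 2.20% and 0.384% of the untreated lists. It ranked below the other 2 sites in every list except untreated replicate 2. The lists differ in length, from 4974 to 32404 peaks, so that these ranks show the standing within a list and no change between lists. Among only the regions that all 4 lists share, the KLK15-KLK3 site stood in the top 3.21% and 3.86% with JQ1, against 0.773% and 3.74% untreated. There the KLK3 upstream site stood in the top 3.65% and 4.17% with JQ1, against 1.92% and 1.64% untreated. For the KLK2 upstream site this was 10.2% and 8.56% with JQ1, against 4.67% and 3.24% untreated.

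The order of the sites by the authors' fold enrichment differed between untreated replicate 2 and the other lists. The fold of the KLK15-KLK3 site was 17.5 and 43.9 with JQ1, against 23.7 and 31.5 untreated. That of the KLK3 upstream site was 11.0 and 24.9 with JQ1, against 13.2 and 32.0 untreated. That of the KLK2 upstream site was 8.12 and 20.1 with JQ1, against 13.7 and 33.4 untreated. The KLK15-KLK3 site led in 3 lists and was the lowest of the 3 in untreated replicate 2, where all of them lay between 31.5 and 33.4. By fold among the regions that all lists share, it stood in the top 1.36% and 1.27% with JQ1, against 1.02% and 14.5% untreated. The KLK3 upstream site stood in the top 10.4% and 19.5% with JQ1, against 11.5% and 14.1% untreated. For the KLK2 upstream site this was 29.8% and 35.0% with JQ1, against 9.89% and 12.2% untreated.

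The fold is a ratio of the fragments over the summit to a local background, and both parts were recovered from the deposited fold and p-value. The KLK3 upstream site had the most fragments of the 3 in every list. It had 62 (95% exact Poisson interval 47.5 to 79.5, counting error only) and 162 (138.0 to 189.0) fragments with JQ1, against 104 (85.0 to 126.0) and 258 (227.5 to 291.5) untreated. The KLK15-KLK3 site had 45 (32.8 to 60.2) and 124 (103.1 to 147.8) fragments with JQ1, against 96 (77.8 to 117.2) and 219 (191.0 to 250.01) untreated. The KLK2 upstream site had 51 (38.0 to 67.1) and 149 (126.0 to 174.9) fragments with JQ1, against 77 (60.8 to 96.2) and 218 (190.0 to 248.9) untreated. In both JQ1 lists the KLK15-KLK3 site had fewer fragments than the KLK2 upstream site. In untreated replicate 1 it had more, and in untreated replicate 2 the 2 counts differed by 1 fragment.

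**Figure D2:**
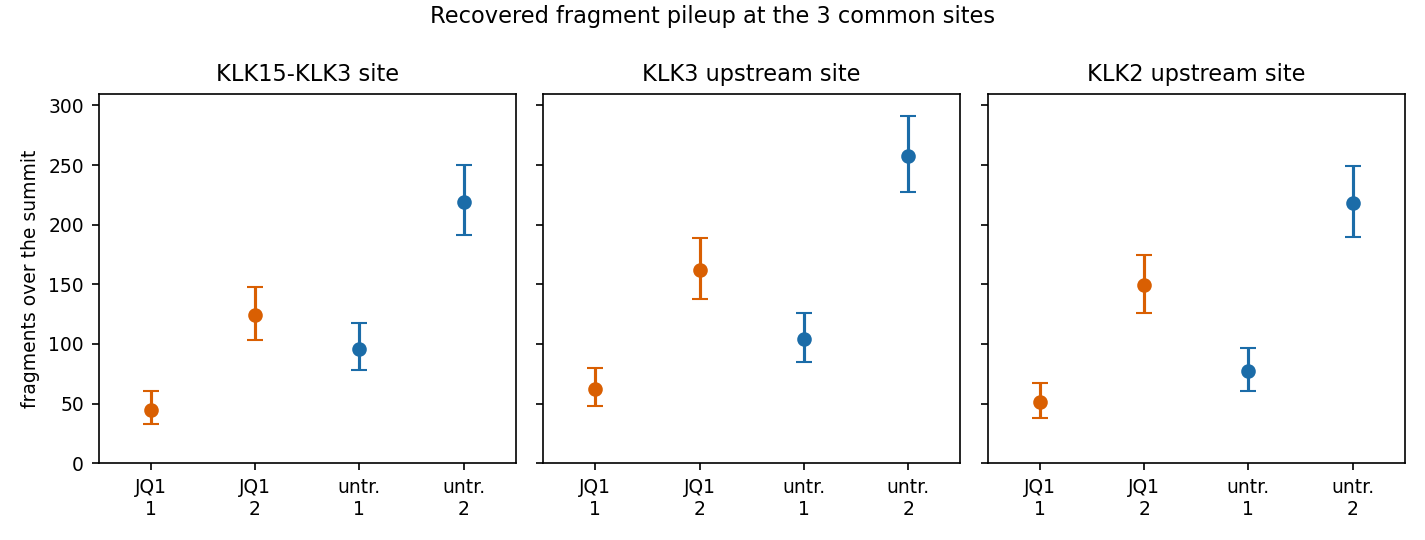
Fragments over the summit of the KLK15-KLK3, KLK3 upstream and KLK2 upstream sites in JQ1 replicates 1 and 2 (orange) and untreated replicates 1 and 2 (blue). Points are the recovered counts and bars their 95% exact Poisson intervals. Replicate 2 is higher than replicate 1 of its group at each site, with 162 and 62 fragments at the KLK3 upstream site with JQ1, and these counts are not scaled for sequencing depth.

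The background under the sites differed between sites and lists. At the KLK15-KLK3 site the caller's background was 1.63 and 1.85 fragments with JQ1, against 3.10 and 3.80 untreated. At the KLK2 upstream site it was 5.41 and 6.47 with JQ1, against 4.68 and 3.51 untreated. At the KLK3 upstream site it was 4.73 and 5.54 with JQ1, against 6.98 and 4.56 untreated. The values of untreated replicate 2 are on a scale of 0.686, the factor by which its fragments had been multiplied. Among these sites the KLK15-KLK3 site had the highest fold and the lowest background in both JQ1 lists and in untreated replicate 1. The part of the background in the differences of fold between treatments was not tested.

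To set the sites against sequencing depth and pull-down, fragments were divided by the median over the 3236 regions of the genome that all 4 lists share. That median was 23 and 69 fragments with JQ1, against 29 and 106 untreated. The KLK15-KLK3 site stood at 1.96 and 1.80 times the median with JQ1, against 3.31 and 2.07 times untreated. The mean log2 ratio of JQ1 over untreated was -0.48, with -0.76 in replicate 1 and -0.20 in replicate 2 (exact permutation p = 0.33, two-sided, the smallest that 2 lists against 2 can give). Both JQ1 values lay below both untreated values, an order that 18.2% of the 3236 common regions also had, while 16.2% had both JQ1 values above both untreated values. Of those regions, 8.22% had a log2 ratio as low or lower. By the authors' fold in place of fragments the sign turned, with a log2 ratio of 0.18, -0.26 in replicate 1 and 0.62 in replicate 2 (exact permutation p = 1).

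The KLK3 and KLK2 upstream sites differed less between treatments in fragments. The KLK3 upstream site stood at 2.70 and 2.35 times the median with JQ1, against 3.59 and 2.43 times untreated. The groups overlapped, and the log2 ratio of -0.23 (exact permutation p = 0.67) was -0.41 in replicate 1 and -0.052 in replicate 2. Of the common regions, 26.1% had a ratio as low or lower. The KLK2 upstream site stood at 2.22 and 2.16 times the median with JQ1, against 2.66 and 2.06 times untreated. Its groups overlapped too, and the log2 ratio of -0.095 (exact permutation p = 1) was -0.26 in replicate 1 and 0.070 in replicate 2. Over all common regions the log2 ratios had a median of -0.030 and an SD of 0.36. At all 3 sites the difference of the mean fragment values was smaller than the SD of the untreated lists.

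In the authors' fold over the list's common median, the KLK2 upstream site was lower with JQ1 by more than the replicates of either group differed. It stood at 1.24 and 1.19 times the median with JQ1, against 1.85 and 1.80 times untreated, or 1.21 ± 0.0312 with JQ1 and 1.82 ± 0.0409 untreated (SD, n = 2 each). The log2 ratio was -0.59, with -0.58 in replicate 1 and -0.59 in replicate 2 (exact permutation p = 0.33, the smallest it can give). The KLK3 upstream site stood at 1.67 and 1.48 times the median fold with JQ1, against 1.78 and 1.72 times untreated, a log2 ratio of -0.15 (exact permutation p = 0.33). At both sites the groups did not overlap, and 16.4% of the common regions likewise had both JQ1 values below both untreated values. A ratio of fold as low as that of the KLK2 upstream site or lower was found in 10.4% of common regions. For the KLK3 upstream site this was 38.7%. The background under the site, given above, differed between the treatments as well, and its part in the lower fold was not tested.

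**Figure D3:**
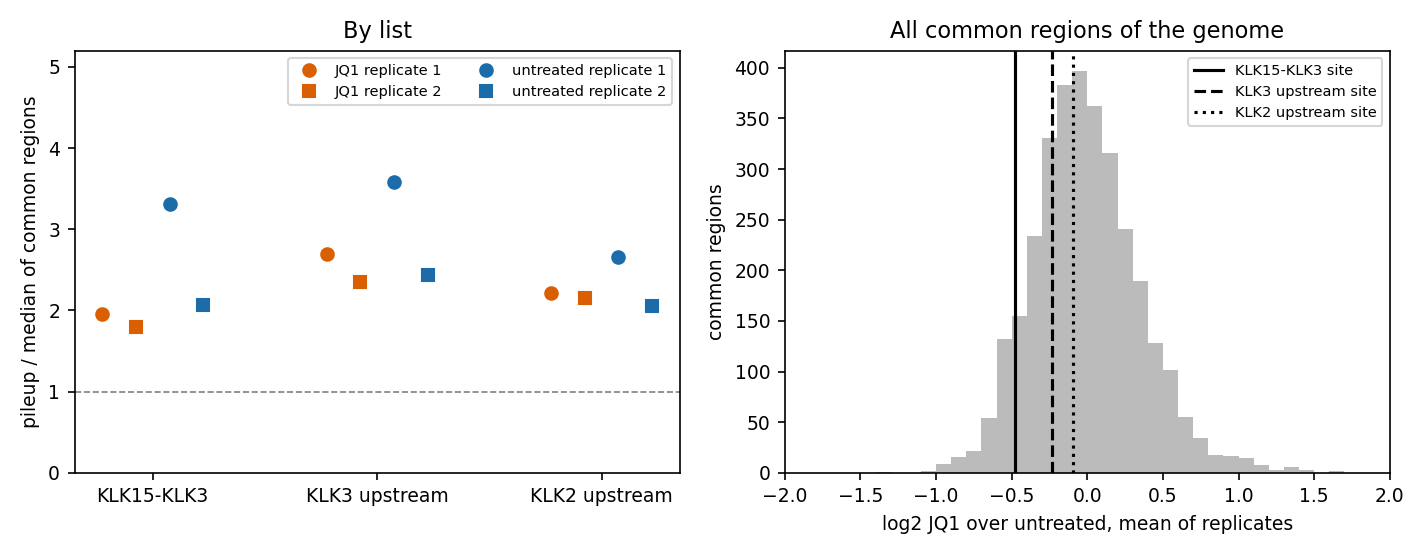
Left, fragments over the summit divided by the list's median over the 3236 common regions, for the 3 sites in JQ1 (orange) and untreated (blue) lists, with circles for replicate 1 and squares for replicate 2 and a dashed line at the median. Right, the log2 ratio of JQ1 over untreated for all common regions (grey, number of regions per bin of 0.1) with the 3 sites as lines at -0.48, -0.23 and -0.095. The 3 sites stand above the median in every list, and their ratios lie within the range of the other regions.

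The share of each site in the fragments of all 3 gives a comparison within a list that needs no scaling. The KLK15-KLK3 site took 28.5% in both JQ1 lists, against 34.7% and 31.5% in the untreated lists (28.5% ± 0.0175 with JQ1 and 33.1% ± 2.22 untreated, SD, n = 2 each, difference -4.59 percentage points, exact permutation p = 0.33). The KLK2 upstream site took 32.3% and 34.3% with JQ1, against 27.8% and 31.4% untreated (33.3% ± 1.40 with JQ1 and 29.6% ± 2.52 untreated, difference 3.68 percentage points, exact permutation p = 0.33). At neither of these sites did the groups overlap, and both differences were larger than the SD of either group. The shares of a list add up to the whole, so that a lower share at a site raises those of the others. The lower and the higher share are thus not separate results. How often other common regions of the genome separate the groups in this way was not counted. The KLK3 upstream site took 39.2% and 37.2% with JQ1, against 37.5% and 37.1% untreated (0.91 percentage points, exact permutation p = 0.67). It had the largest share of the 3 in each list.

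The 6 weaker regions of the cluster were found in replicate 2 lists alone. Of the 9 regions, 2 were in both replicate 2 lists and neither replicate 1 list, against 38.0% of all regions of the genome. A further 4 of the 9 were in a single list, against 40.0% of all regions. No region of the cluster was in both JQ1 lists and neither untreated list, and none was in both untreated lists and neither JQ1 list. In the genome these made up 0.377% and 0.620% of regions, so that 0 of 9 is near the background.

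Between the KLK15-KLK3 and the KLK3 upstream sites lay a weaker region with its summit at 50845715, 9.20 kb before the KLK3 start and also inside KLK3e. It had 36 fragments and a fold of 9.28 in JQ1 replicate 2, against 29 fragments and a fold of 6.65 in untreated replicate 2. Its −log10 q was 23.4 with JQ1, against 9.64 untreated. The summits of both lists were 8 bp apart.

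The KLK2 gene itself carried peaks in untreated replicate 2 alone. The peak at the promoter (50873118 to 50873283, summit 50873199) was centred 240 bases before the start and covered the first 95 bases printed for KLK2 above. It had 34 fragments, a fold of 5.64 and a −log10 q of 9.67, and stood in the top 62.8% of its list. A second peak at 50879342 lay inside the KLK2 span, 5.90 kb past the start, with 23 fragments, a fold of 4.12 and a −log10 q of 3.99. It stood in the top 90.7% of its list. It was the only summit inside any of the 10 spans, and how often other genes hold a summit in their span was not counted. The KLK3 span and its promoter held no peak in any list. In JQ1 replicate 2 a peak at 50885109 lay inside KLKP1, 4.54 kb past the end of KLK2, with 22 fragments, a fold of 4.90 and a −log10 q of 7.94.

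**Figure D4:**
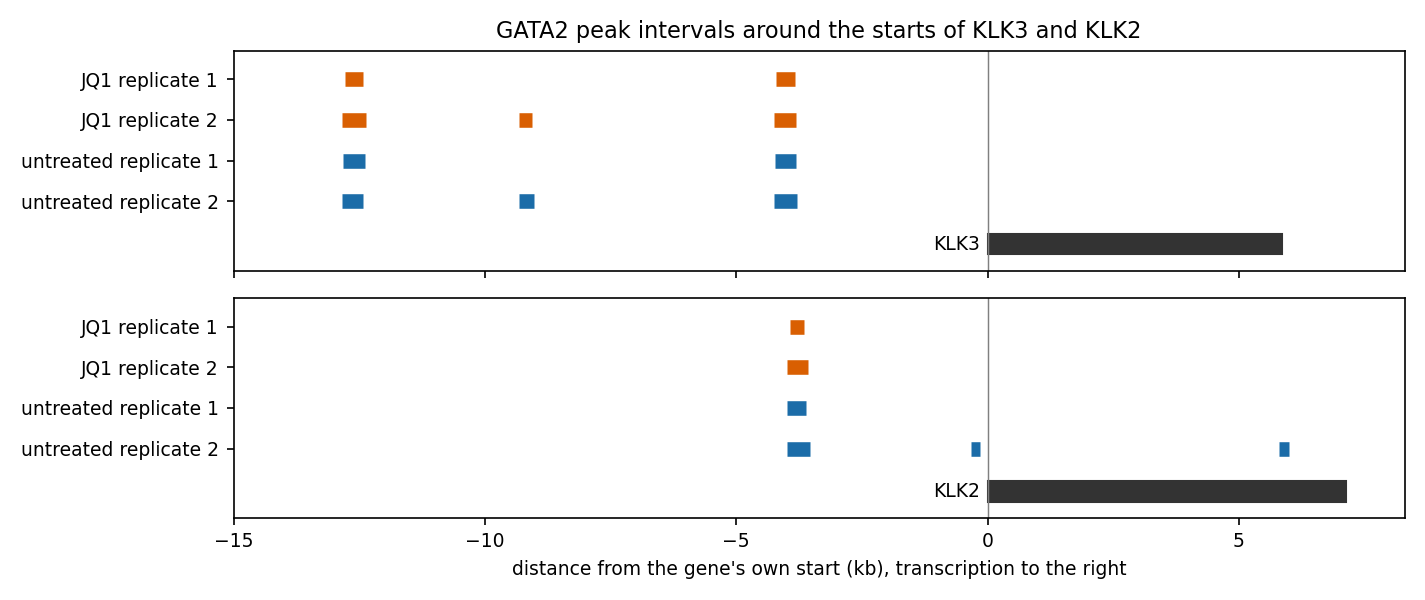
Peak intervals around the starts of KLK3 (top) and KLK2 (bottom), as distance from the gene's own start in kb with transcription to the right. Rows are JQ1 (orange) and untreated (blue) lists and black bars are the gene spans. A peak stands about 4 kb before each start in all 4 lists, at 4.03 kb for KLK3 and 3.76 kb for KLK2, and peaks at the start of KLK2 and inside it are in untreated replicate 2 only.

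From the KLKP1 peak to the next region the cluster held no GATA2 peak in any list over 181.6 kb. This stretch contains 10 kallikrein genes. KLK4, which codes for a protease of prostate and enamel, lies first in it. KLK5 and KLK7 code for the proteases that shed the outer skin layer, KLK6 for neurosin, a protease of the nervous system, and KLK8 for neuropsin. KLK9, KLK10, KLK11, KLK12 and KLK13 follow. Of 302 gaps between regions on chromosome 19, 28.1% were as long or longer, and their median was 79.7 kb. A gap of this length is common on the chromosome.

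Beyond the gap, 2 regions lay between KLK13 and KLK14 in the replicate 2 lists. The stronger, at 51067149, was 1470 bp from the KLK13 span and 2.06 kb before the nearest KLK13 start of the promoter table. It had 24 fragments, a fold of 8.23 and a −log10 q of 15.1 in JQ1 replicate 2. In untreated replicate 2 the same interval held 2 summits 219 bp apart, with 49 fragments and a fold of 6.23 at 51067133 and 23 fragments and a fold of 2.79 at 51066914. The −log10 q at the higher of these was 14.8. A further peak at 51074568, 2.93 kb from the end of KLK14, was in JQ1 replicate 2 alone, with 21 fragments and a fold of 4.69.

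Read gene by gene, the GATA2 sites of all 4 lists were at the KLK1 end of the cluster, while weaker regions also lay beside KLK13 and KLK14. A region of all 4 lists lay within 50 kb of 5 of the 10 genes, namely KLK1, which codes for the tissue kallikrein that releases kinins, KLK15, KLK3, KLK2 and KLK4. Of all 20037 protein-coding genes, 13.6% had such a region. All 3 common sites were within 50 kb of KLK1, KLK15, KLK3 and KLK2, while 0.729% of genes had 3 or more. These genes are neighbours and share the same sites, so that their counts are not independent. The nearest common site was 4.0 kb from the KLK3 span, 3.8 kb from KLK2, 8.7 kb from KLK15, 18.5 kb from KLK1 and 36.7 kb from KLK4. It was 73.6 kb from KLK5, 88.9 kb from KLK6, 106.8 kb from KLK7, 143.1 kb from KLK10 and 152.6 kb from KLK11.

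The count of genes with any peak followed the length of the list. A peak within 50 kb was found for 5 of the 10 genes in JQ1 replicate 1 and for 7 in JQ1 replicate 2, against 5 in untreated replicate 1 and 7 in untreated replicate 2. The same share of all genes was 18.2% and 58.2% with JQ1, against 25.7% and 54.6% untreated. KLK10, first described as a gene reduced in breast cancer cells, and KLK11 were the 2 genes added, through the regions beside KLK13. In any list, 7 of the 10 genes had a peak, against 62.6% of all genes, and KLK5, KLK6 and KLK7 had none. Of the 5 other kallikrein genes, KLK12, KLK13 and KLK14 had a peak in both replicate 2 lists and none in replicate 1, and KLK8 and KLK9 had none.

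The number of peaks in the cluster did not separate the treatments. The lists held 3 and 7 peaks with JQ1, against 3 and 8 untreated, which gave 5 ± 2.83 with JQ1 and 5.5 ± 3.54 untreated (SD, n = 2 each, log2 ratio of geometric means -0.10, exact permutation p = 1). The 8 peaks of untreated replicate 2 lay in 7 regions. With each region counted once the log2 ratio was 0. As a share of each list they made up 0.0603% and 0.0216% with JQ1, against 0.0435% and 0.0292% untreated (exact permutation p = 1). The cluster held 29.1 regions per Mb, against 12.3 per Mb in the genome, and 9.71 regions of all 4 lists per Mb, against 1.10 per Mb. The genes were chosen with these data in view, so that the comparison of densities is a description.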

How the data were processed

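GATA2 ChIP-seq peak lists of 4 precipitates were analysed, 2 with JQ1 and 2 untreated. The 4 input samples have no list used here. Bowtie2, Picard and MACS2 are named, with build hg38, in the submitters' processing notes. Tool versions and settings were not given in the sources used here. Each list belongs to 1 precipitate, per the labels. The deposited fold enrichment is a linear ratio, and the deposited p-value and q-value are given as −log10. The deposited score of the authors is a whole number and was not used. Library totals were not used here, so the fragments over peaks are the only depth given.

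Each line on chromosomes 1 to 22, X and Y counted as 1 peak. This left out 10 lines of JQ1 replicate 1 and 8 of untreated replicate 2. Lines overlapping by 1 bp were merged. Genes came from RefSeq GRCh38.p14, the same build as hg38, and all 10 were matched. The fragments over a summit were recovered by solving the fold, (fragments + 1) over (background + 1), together with the Poisson p-value. Whole numbers fitted within 0.001 of the deposited −log10 p for 99.997% of lines in JQ1 replicate 2 and 100% in the other lists. In untreated replicate 2 they fitted after multiplication by 0.686, a factor fitted here. The lowest background was 1.13 and 1.56 fragments with JQ1, against 1.25 and 1.96 untreated in unscaled fragments. The median line had 20 and 24 fragments with JQ1, against 22 and 37 untreated. Intervals cover counting error only. The recovery and the merging were tested on simulated data.

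Single values per list were compared by a two-sided exact permutation test, which cannot go below 0.33. The named genes are the 10 that set the window, the other 5 of the cluster and at most 5 of a list of kallikrein partners, ordered by lists with a peak. The genes and lists were chosen with earlier results of these data known, and the recovery of fragments was added after the files were seen. Python 3.11.15, NumPy 2.4.6, pandas 2.3.3, SciPy 1.17.1 and, for the promoter alignment, Biopython 1.88 were used.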

Additional observations from a re-analysis of the deposited data

How the results depend on the processing

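The 3 common sites were found with windows of 10 and 100 kb, at a −log10 q of 5 or more, with lists cut to 4974 peaks, with summits linked up to 100 bp apart and at 50% reciprocal overlap. With lists of equal length the 6 weaker regions were absent. Leaving out a replicate gave 3 to 5 shared regions, with 5 without replicate 1, and 0 to 2 regions found in the untreated or in the JQ1 list alone, with 2 of each without replicate 1. A common site was found for 3 genes within 10 kb and for 7 within 100 kb, in place of 5, and for 5 to 7 with a replicate left out. The shares of all regions and of all genes at these settings were not counted. These counts are therefore not read as a result about the cluster. The log2 ratio of peak numbers was 0.11 at a −log10 q of 5 or more, and ran from -0.19 to 0 with a replicate left out. The share of the list ran from -0.00762 to 0.0168 percentage points, the first without replicate 1. The fragment ratio turned at the KLK15-KLK3 site with the authors' fold (0.18) and at the KLK2 upstream site without replicate 1 (range -0.26 to 0.070 with a replicate left out). The cause was not tested. Divided by the lowest background of the list, the log2 ratios were -0.72 at the KLK15-KLK3 site, -0.47 at the KLK3 upstream site and -0.33 at the KLK2 upstream site, in place of -0.48, -0.23 and -0.095. This change of divisor is the same for every region of a list, so that it moves all regions alike. The median over the 3236 common regions was then 20.4 and 44.2 with JQ1, against 23.2 and 54.2 untreated. Under the replicate block, with a smallest p of 0.5, the log2 ratio of peak numbers stayed at -0.10 and the share difference at 0.00461 percentage points, both with an exact permutation p of 1. The replicate numbers are not stated to pair samples, and the replicates' deviations correlated between treatments at r = 0.54 over 3236 common regions, which are not independent. At 2 lists a group this exact test cannot pass 0.05.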

Other observations

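Among 25 genes of kallikrein substrates, receptors and inhibitors outside the cluster, 6 had a region of all 4 lists within 50 kb, against 13.6% of all protein-coding genes. SERPINA3 and SERPINA5, which code for serpins that bind prostate-specific antigen, shared a region, 12.8 and 43.8 kb from their spans on chromosome 14. Its −log10 q was 17.6 and 140.4 with JQ1, against 79.7 and 178.5 untreated. The region near DSG1, the gene of a desmosomal cadherin, had 8.52 and 105.6 with JQ1, against 38.6 and 151.9 untreated. The region near KNG1, the gene of the kininogen from which kinins are cut, had 27.9 and 106.3 with JQ1, against 19.05 and 126.1 untreated. A region inside F2R, a protease-activated receptor gene, had 8.66 and 61.2 with JQ1, against 3.61 and 20.9 untreated. A peak of any list lay within 50 kb of 18 of the 25 genes, against 62.6% of all protein-coding genes, and 7 had none. These q-values belong to separate lists and were not tested between treatments.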
